A study of Mus musculus with 12 samples.

Results

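The genes described here are 10 immediate early genes, Fos, Fosb, Jun, Junb, Egr1, Ier2, Ier3, Atf3, Btg2 and Dusp1. These genes were followed in skeletal muscle of mice with a mutation in dysferlin, a protein needed to reseal damaged fibre membranes. They were chosen by name, as every probe set whose annotated symbol is one of the 10, and the rule itself uses no measured value, although the 10 names were put together with earlier results of these data known. They are 10 of the 8251 genes that the array names by a single symbol and hold 15 probe sets, of which 13 rose above the lower limit of measurement on at least 3 arrays and were tested. The study measured total RNA from mice 3 weeks old on 12 single-channel arrays, in 4 groups of 3. Dysf_null_QF and Dysf_null_TA came from mice of the strain C57BL/10-SJL.Dysf, labelled Dysf -/-, which carry the dysferlin mutation of the SJL strain on a C57BL/10 background. Control_QF and Control_TA came from C57BL/10 mice. The labels name no treatment. QF and TA are the labels' names of the muscles, understood here, from background on the study, as quadriceps (proximal) and tibialis anterior (distal). The mutated allele, called null here after the label, is carried in every cell of the mouse, and each array is whole muscle. The arrays do not show how much dysferlin protein remained. The labels do not say whether arrays of a group came from separate animals, so p-values measure the spread between arrays, which may be technical.

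Immediate early genes are transcribed within minutes of a stimulus, such as a growth factor, calcium entry, mechanical load, cold, heat or loss of blood flow, without the need for new protein. Their promoters are read by factors that are already present, among them serum response factor at CArG boxes and CREB at cAMP response elements. The products of Fos, Fosb, Jun and Junb pair to form AP-1, which binds TGA(C/G)TCA sites in later target genes, while Btg2 and Dusp1 act as brakes on growth and on kinase signalling. In muscle these genes answer exercise and injury, and they also answer the removal and handling of the tissue, so a rise that is shared by all of them on single arrays is a known mark of dissection.

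The promoters of Fos, Btg2 and Dusp1 are shown because these are the 3 members whose levels differed between genotypes in at least 1 of the fits described in the next paragraphs. Each is the 200 bases before the annotated start, 5′ to 3′ on the gene's own strand, from RefSeq on build GRCm38.p6. Capitals mark TGACG, the core of the cAMP response element, on either strand, which spans TGACGTCA where the full palindrome is present.
Fos (chr12:85473690-85473889, plus strand): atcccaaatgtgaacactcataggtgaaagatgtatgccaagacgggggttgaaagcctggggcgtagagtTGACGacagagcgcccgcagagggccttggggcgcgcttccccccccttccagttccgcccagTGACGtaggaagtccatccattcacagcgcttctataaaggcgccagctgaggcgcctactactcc
Btg2 (chr1:134079156-134079355, minus strand): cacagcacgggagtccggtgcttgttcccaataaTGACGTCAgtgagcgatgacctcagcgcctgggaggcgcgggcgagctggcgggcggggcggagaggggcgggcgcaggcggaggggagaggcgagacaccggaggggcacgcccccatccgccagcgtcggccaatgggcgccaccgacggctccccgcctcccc
Dusp1 (chr17:26508473-26508672, minus strand): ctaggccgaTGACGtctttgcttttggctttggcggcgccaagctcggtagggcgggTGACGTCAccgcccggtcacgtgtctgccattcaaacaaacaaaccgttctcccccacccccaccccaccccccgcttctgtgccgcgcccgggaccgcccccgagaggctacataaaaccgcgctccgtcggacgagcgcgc
The full palindrome TGACGTCA began 166 bases before the start of Btg2 and 143 bases before that of Dusp1, and the shorter core began 129 and 66 bases before the start of Fos. With both strands searched over the 250 bases before the start, TGACGTCA was found in 2 of the 8 members that have an entry in the RefSeq promoter table and in 1.546% of 32851 promoters. The core TGACG, which is contained in the palindrome, was found in 6 of the 8 (Fos, Fosb, Junb, Atf3, Btg2 and Dusp1) and in 17.765% of all promoters. The AP-1 site TGANTCA was found in 0 of the 8 and in 6.749% of all, the EGR site GCGGGGGCG in 1 (Fosb) and in 2.572%, and the CArG box in 0 and in 1.467%. Sites farther upstream than these 250 bases were not searched, so a count of 0 does not mean that the genes lack the site. Egr1 and Ier2 have no entry in the table.

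The values are the authors' deposited intensities, quantile normalized here, floored at 23.025 (4.53 on the log2 scale) and written as log2 levels. A difference is therefore a difference of log2 levels, with its standard error (SE) from limma. A difference was called at an adjusted p under 0.05, by Benjamini-Hochberg over all 10331 probe sets tested. A gene with several probe sets is given by the brightest. Same-numbered QF arrays deviated together across genotypes (r = 0.39 to 0.71), and same-numbered TA arrays did so weakly (0.11 to 0.23). The fit with the replicate number as a block is therefore given wherever it changed a call described here. It leaves fewer residual degrees of freedom than the fit without the block. Of the arrays, the 2 QF arrays numbered 2 stood apart, with median correlations of 0.876 (Dysf_null) and 0.866 (Control) to all others, where the remaining 10 gave 0.926 to 0.959. All 8 muscle fibre markers, Acta1, Ckm and Myh4 among them, had mean levels at or above percentile 95.3 of all probe sets. No probe set is named Dysf, so the genotype was not checked on the arrays.

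Fos (probe set 160901_at), the AP-1 subunit whose induction is the classic immediate early response, rose in dysferlin-null muscle. On the log2 scale its level was 8.24, 7.83 and 8.85 on the Dysf_null_QF arrays numbered 1, 2 and 3, and 6.33, 6.30 and 7.56 on the Control_QF arrays. In TA it was 8.67, 8.85 and 8.89 with the null allele and 6.79, 6.88 and 6.42 in controls. Every one of the 6 null arrays lay above every one of the 6 control arrays, a separation that 0.726% of all probe sets showed. Group means were 8.31 ± 0.51 and 6.73 ± 0.72 in QF and 8.80 ± 0.12 and 6.70 ± 0.24 in TA (SD, n = 3). The nearest arrays of the 2 genotypes were Control_QF 3, the highest control, and Dysf_null_QF 2, the lowest null array. In the deposited intensities themselves the 6 null arrays read 250.8 to 490.2 and the 6 control arrays 77.5 to 178.8.

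Averaged over both muscles, the genotype difference in Fos was 1.84 ± 0.24 (SE), or 3.59-fold, with adjusted p = 0.00186, and it ranked 24 of 10331 by p. In TA alone it was 2.11 ± 0.34 (95% interval 1.36 to 2.85, adjusted p = 0.0151), which is 4.31-fold. That call was lost without any single one of the 6 TA arrays, where the difference stayed between 1.96 and 2.19 and the adjusted p went up to 0.105. In QF alone the difference was 1.58 ± 0.34 (0.84 to 2.32) and missed the threshold at adjusted p = 0.0813. It passed with the replicate block (adjusted p = 0.00268) and without Control_QF 3, where it was 1.98 (adjusted p = 0.0111). The genotype differences of the 2 muscles differed by 0.53 ± 0.49 (interval -0.52 to 1.58), which did not pass. Fos has a second probe set near the floor, at 4.53 to 5.88, which showed genotype differences of 0.06 ± 0.34 in QF and 0.00 ± 0.34 in TA. The 2 probe sets did not follow each other over the arrays (r = -0.50 between their deviations from the group means, 12 arrays), so the result on Fos rests on 1 probe set. In whole muscle, more cells of a type that holds Fos RNA and more Fos RNA per cell cannot be told apart.

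**Figure D1:**
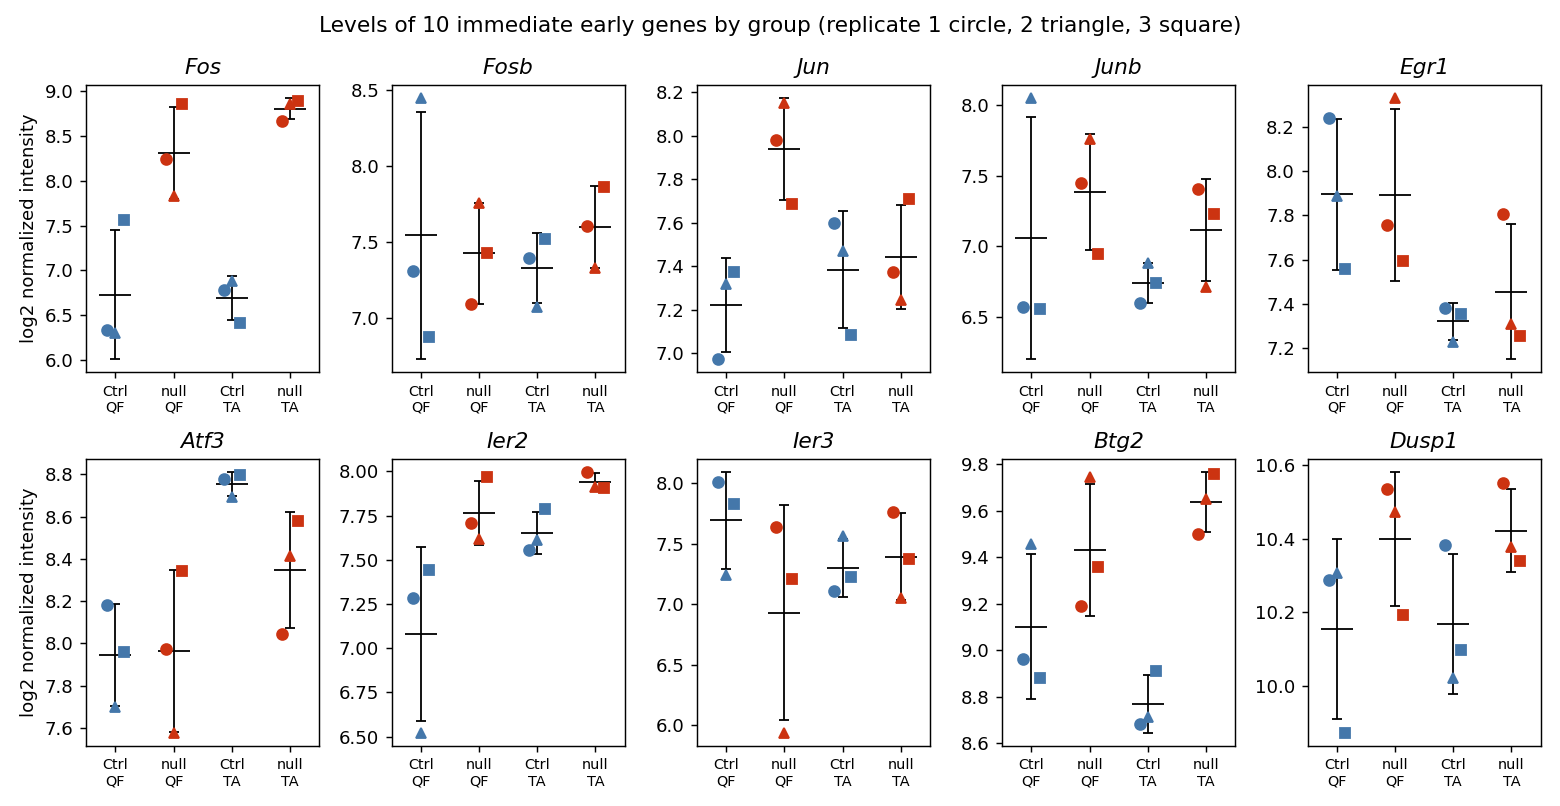
Level of each of the 10 immediate early genes on every array (y axis, log2 normalized intensity), in 4 groups of 3 arrays (x axis); points are arrays (circle, triangle and square for numbers 1, 2 and 3), and the dash and bar are the group mean and SD. For Fos all 6 null arrays, from 7.83 to 8.89, lie above all 6 control arrays, from 6.30 to 7.56, while the groups of Fosb, Junb, Egr1, Ier3 and Dusp1 overlap between genotypes in both muscles.

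Jun (100130_at), the partner of Fos in AP-1, did not pass in either muscle. In QF its levels were 7.98, 8.15 and 7.69 on the null arrays and 6.97, 7.32 and 7.38 on the control arrays, without overlap. The difference was 0.72 ± 0.24 (adjusted p = 0.379, and 0.154 with the replicate block). In TA the null arrays read 7.37, 7.24 and 7.71 and the controls 7.60, 7.47 and 7.08, which overlap, with a difference of 0.06 ± 0.24. The genotype difference was 0.66 lower in TA than in QF in point estimate, with an interval for TA minus QF of -1.39 to 0.07, and did not pass.

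Fosb (103990_at) and Junb (102363_r_at), the other AP-1 subunits among the members, overlapped between genotypes in both muscles. Fosb read 7.10, 7.75 and 7.43 in null QF, 7.31, 8.45 and 6.87 in control QF, 7.61, 7.33 and 7.86 in null TA and 7.40, 7.07 and 7.52 in control TA. Its differences were -0.12 ± 0.35 in QF and 0.27 ± 0.35 in TA. Junb read 7.45, 7.76 and 6.94 in null QF, 6.57, 8.05 and 6.56 in control QF, 7.40, 6.71 and 7.23 in null TA and 6.60, 6.88 and 6.74 in control TA. Its differences were 0.32 ± 0.39 and 0.38 ± 0.39. For both genes the highest of the 12 values was on Control_QF 2, 1 of the pair of QF arrays that stood apart. The second Junb probe set was at the floor on 9 of 12 arrays and above it on Dysf_null_QF 1 (4.72), Dysf_null_TA 1 (6.13) and Dysf_null_TA 3 (5.31). It entered the test only through these null arrays, with every control array at the floor, so its genotype differences could not fall below 0. Its TA difference of 0.80 ± 0.32 did not pass (adjusted p = 0.839).

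Atf3, a stress-induced factor of the ATF/CREB family that often represses its targets, was lower in null TA than in control TA on every array but did not pass the test. Its brightest probe set (104155_f_at) read 8.04, 8.41 and 8.58 in null TA and 8.78, 8.69 and 8.80 in control TA, a difference of -0.41 ± 0.22 (adjusted p = 1.0, and 0.332 with the replicate block). A second probe set also separated these groups, at 6.71, 6.21 and 6.18 against 7.70, 7.30 and 6.95, with a difference of -0.95 ± 0.63. In QF the brightest probe set read 7.97, 7.58 and 8.34 in null mice and 8.18, 7.70 and 7.96 in controls, and the difference was 0.02 ± 0.22. The direction in TA is thus opposite to that of Fos, while in QF the genotypes overlap. Over single arrays the deviations of the 2 Atf3 probe sets had r = -0.64, and the remaining probe set was at the floor on all 12 arrays and was not tested.

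Egr1 (98579_at), a zinc finger factor induced by the same serum response pathway as Fos, showed no genotype difference beyond its spread. It read 7.75, 8.33 and 7.59 in null QF, 8.24, 7.89 and 7.56 in control QF, 7.80, 7.31 and 7.25 in null TA and 7.38, 7.23 and 7.36 in control TA. The differences were -0.0015 ± 0.26 in QF and 0.13 ± 0.26 in TA, with 95% intervals of -0.56 to 0.56 and -0.43 to 0.70. A second Egr1 probe set was at the floor on all 12 arrays and was not tested.

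Ier2 (99109_at) and Ier3 (94384_at) encode small proteins named for their immediate early induction, the latter a modulator of cell survival. Ier2 read 7.71, 7.62 and 7.97 in null QF against 7.28, 6.52 and 7.44 in control QF, and 7.998, 7.911 and 7.906 in null TA against 7.55, 7.61 and 7.79 in control TA. The null arrays lay above the control arrays in both muscles, by 0.68 ± 0.25 in QF and 0.29 ± 0.25 in TA, and neither passed. The average of 0.48 ± 0.17 also missed the threshold (adjusted p = 0.371, and 0.0640 with the replicate block). Ier3 read 7.64, 5.94 and 7.21 in null QF against 8.01, 7.24 and 7.83 in controls, and 7.77, 7.05 and 7.37 in null TA against 7.11, 7.56 and 7.23. Its differences were -0.76 ± 0.39 and 0.09 ± 0.39. The QF value leans on Dysf_null_QF 2, the lowest Ier3 reading of the 12.

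Btg2 (101583_at), an antiproliferative cofactor of mRNA deadenylation and a p53 target, rose on average over the muscles by 0.60 ± 0.13, just past the threshold (adjusted p = 0.0498, and 0.00101 with the replicate block). In TA its levels were 9.50, 9.65 and 9.76 on null arrays and 8.68, 8.71 and 8.91 on control arrays, without overlap. That difference was 0.87 ± 0.19 (interval 0.47 to 1.27) and missed the threshold at adjusted p = 0.0940, passing with the block at 0.00168. In QF the null arrays read 9.19, 9.75 and 9.36 and the controls 8.96, 9.46 and 8.88, which overlap, with a difference of 0.33 ± 0.19 (adjusted p = 0.898, and 0.108 with the block). The average kept its call in 2 of 12 fits that each left out 1 array, those without Dysf_null_QF 1 and without Control_QF 2, and the adjusted p went up to 0.160 in the other 10. It was 0.0161 without both QF arrays numbered 2. The muscles' differences differed by 0.54 ± 0.26 (interval -0.03 to 1.11), which did not pass.

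Dusp1 (104598_at), the phosphatase that switches off MAP kinases, was the most even of the members, with a pooled SD within groups of 0.19, at percentile 10.7 of all probe sets. It read 10.54, 10.47 and 10.19 in null QF against 10.29, 10.31 and 9.87 in controls, and 10.55, 10.38 and 10.34 in null TA against 10.38, 10.02 and 10.10. The groups overlap in both muscles. The differences were 0.24 ± 0.15 in QF and 0.25 ± 0.15 in TA, and their average of 0.25 ± 0.11 was not called (adjusted p = 0.599). With the replicate block the average passed at adjusted p = 0.0329, a rise of 1.19-fold.

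Counted together, 0 of the 13 probe sets were called in QF, 1 in TA and 2 for the average, all of them higher in null muscle. The shares of all 10331 probe sets called in these comparisons were 0.455%, 0.407% and 1.09%. At an unadjusted p under 0.05 limma found 3, 3 and 5 of the 13, against 6.77%, 4.82% and 7.63% of all. In TA, 1 of the 3 was the second Junb probe set. It was tested only because 3 null arrays rose above the floor, so its direction was set by the filter and its count is no support. With the replicate block 1 (Fos), 2 (Fos and Btg2) and 3 (Fos, Btg2 and Dusp1) were called, where the block called 2.64%, 1.54% and 4.59% of all. By gene, 7 of the 10 differences were above 0 in QF, 9 in TA and 8 on average, with medians of 0.28, 0.26 and 0.30. Over all probe sets the medians were -0.01, -0.0027 and -0.01, and 48.5%, 48.8% and 47.6% of differences were above 0. Null arrays lay above all control arrays for 3 probe sets in QF (Fos, Jun and Ier2), where 4.08% of all probe sets did so, and for 3 in TA (Fos, Btg2 and Ier2), where 6.92% did. Null TA arrays lay below all control arrays for 2 probe sets, both of Atf3, against 6.87% of all.

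**Figure D2:**
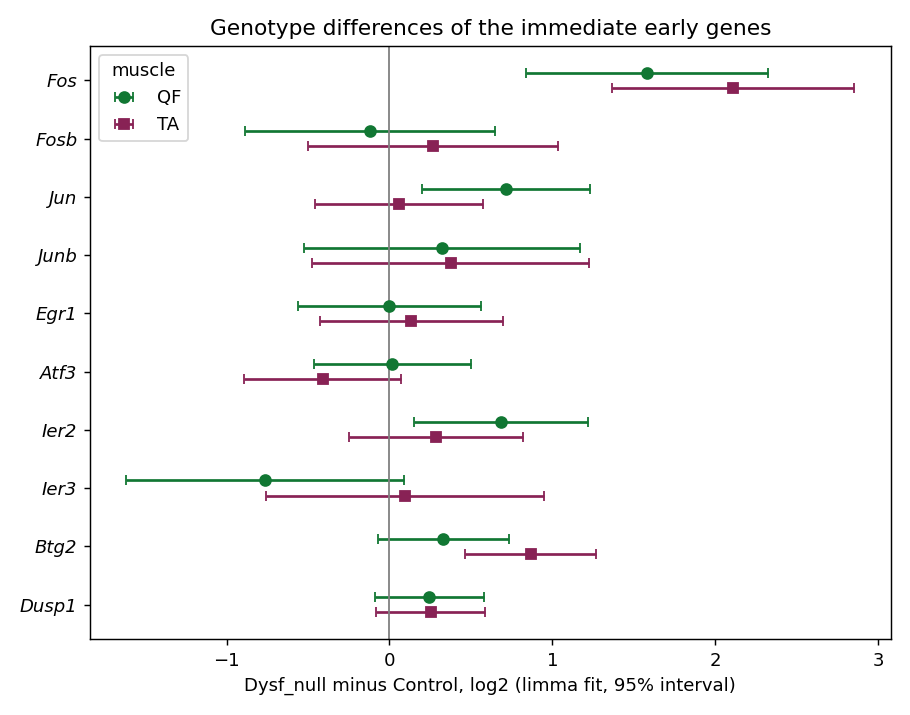
Genotype difference (x axis, Dysf_null minus Control, log2) of each gene in QF and in TA, with bars for the 95% interval of the limma fit. The interval of Fos runs from 0.84 to 2.32 in QF and from 1.36 to 2.85 in TA, and that of Btg2 from 0.47 to 1.27 in TA.

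The response of these genes to genotype was not shown to depend on the muscle. The interaction, which subtracts the QF difference from the TA difference, was called for 0 of the 13 probe sets by limma, with 0 at an unadjusted p under 0.05 and 0 with the replicate block. Of all probe sets 0.0678% were called, 3.05% had an unadjusted p under 0.05 and 0.31% were called with the block. Between muscles within a genotype, 0 of 13 were called in controls (3 at an unadjusted p under 0.05) and 0 in null mice (1), against 0.736% and 0.3% of all probe sets called and 9.86% and 5.72% at an unadjusted p under 0.05. In controls, Atf3 was higher in TA than in QF on every array, by 0.81 ± 0.22 (adjusted p = 0.174), and it passed without Control_QF 2 or without both QF arrays numbered 2. Egr1 was lower in control TA than in control QF on every array, by 0.57 ± 0.26 in size (adjusted p = 0.495). Control TA lay above control QF without overlap for 2 probe sets, of Atf3 and Ier2, against 8.16% of all. It lay below for 2, of Egr1 and the second Fos probe set, against 5.6%.

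Whether the members moved together on single arrays was read from each array's deviation from its group mean, which removes genotype and muscle. Handling that differed between groups is removed with them, and cannot be told apart from genotype or muscle here. Within groups, the members did not share a common movement. Over the 45 pairs of the 10 genes, 21 (46.7%) had a positive r over the 12 arrays, and the median r was -0.13 with a range from -0.85 to 0.86. By rank, 20 were positive and the median rho was -0.11. Over all 53359615 pairs of tested probe sets the median r was 0.0027, 50.2% were positive, and the middle of the distribution, from the lower to the upper quartile, ran from -0.34 to 0.35. The 3 deviations of a group sum to 0, so the 12 points carry 8 free values, and all pairs share the same arrays. No p is attached to these correlations.

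**Figure D3:**
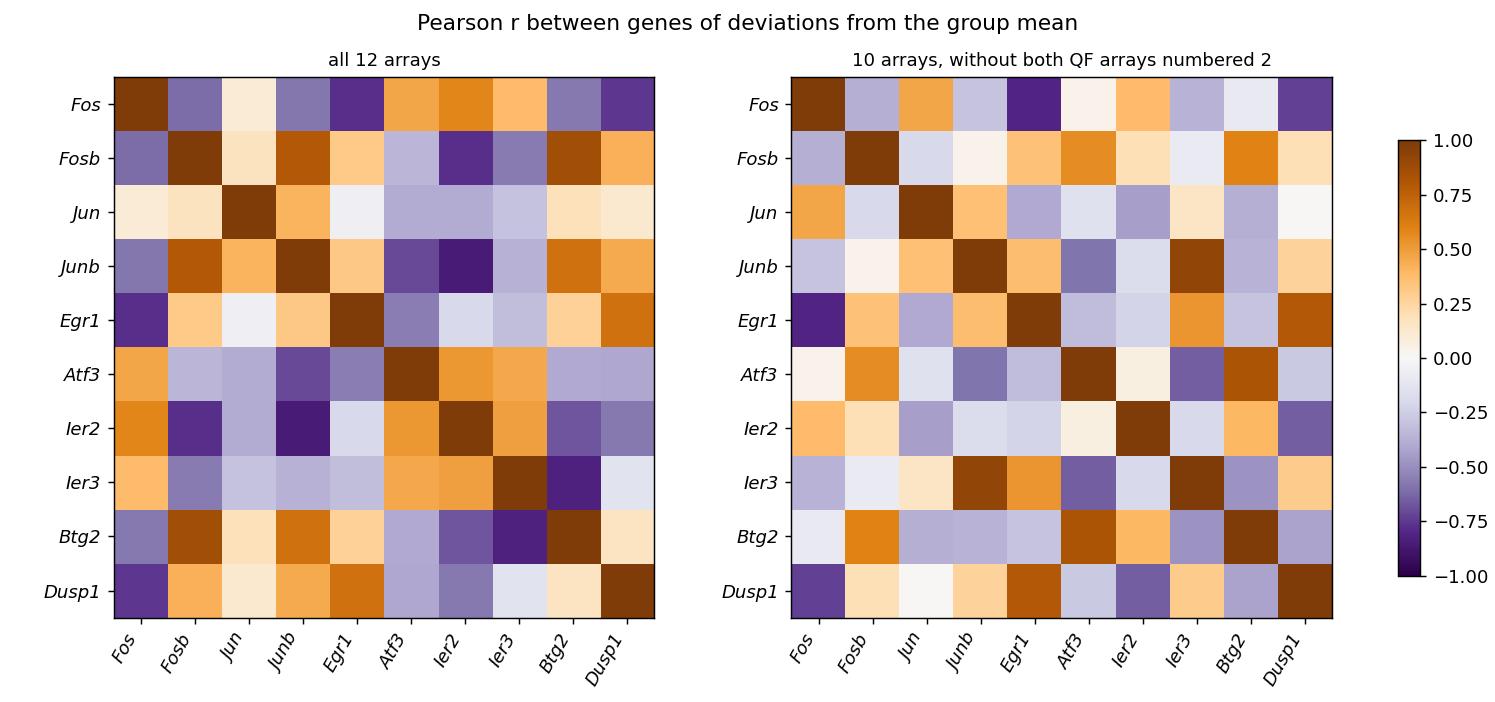
Pearson r between the deviations of each pair of immediate early genes from their group means (colour scale from -1 to 1), with all 12 arrays on the left and without both QF arrays numbered 2 on the right. Over 12 arrays positive and negative pairs are mixed, 21 positive of 45, and the extremes are Fosb with Btg2 at 0.86 and Junb with Ier2 at -0.85.

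Over all 12 arrays the brighter Fos probe set was low where Egr1 and Dusp1 were high. Its r was -0.78 with Egr1 (rho = -0.75), -0.75 with Dusp1 (rho = -0.59) and 0.10 with Jun. The first was -0.81 without both QF arrays numbered 2 and -0.66 without the 2 arrays where Fos deviated most, Control_QF 3 and Dysf_null_QF 3, and the second was -0.40 without the latter pair. Within muscles, r with Egr1 was -0.85 on QF arrays and -0.55 on TA arrays, with Dusp1 -0.94 and -0.12, and with Jun -0.10 and 0.73. With the second Fos probe set, which lies near the floor, r with Egr1 turned to 0.88. Egr1 and Dusp1 varied together (r = 0.67, rho = 0.62, and 0.80 without both QF arrays numbered 2). Fosb varied with Btg2 (r = 0.86, and 0.60 without those 2 arrays). Junb with Atf3 (r = -0.71, and -0.59 without them) and Ier2 with Dusp1 (r = -0.57, and -0.65 without them) also held. Some other strong pairs rested on those arrays. Without both QF arrays numbered 2, Fosb with Junb went from 0.79 to 0.04, Junb with Ier2 from -0.85 to -0.18 and Fosb with Ier2 from -0.78 to 0.20. Of 19 pairs past 0.5 in size, 6 stayed past it with the same sign there and 3 turned sign. Of all 45 pairs, 24 had the same sign in QF as in TA.

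No single array had all of the members high or low. The number of the 10 genes above their group mean ran from 3, on Dysf_null_TA 2, to 6, which 5 arrays reached, and the mean deviation of the 10 genes ran from -0.13 to 0.08. On Dysf_null_TA 2, the array with the fewest above the mean, the largest deviation was -0.40 and Fos itself was 0.047 above its group mean. The farthest single readings were Ier3 on Dysf_null_QF 2 (-0.99), Junb and Fosb on Control_QF 2 (0.99 and 0.90) and Fos on Control_QF 3 (0.83). On Control_QF 3, where Fos was high, Fosb was 0.67 below its group mean. The mean size of the members' deviations was 0.12 to 0.42 per array, against 0.19 to 0.42 over all probe sets. Pooled within groups, the SD of the members ran from 0.19 for Dusp1 to 0.53 for Ier3, at percentiles 10.7 and 72.1 of all probe sets, with Fos at 0.46 (percentile 62.4).

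**Figure D4:**
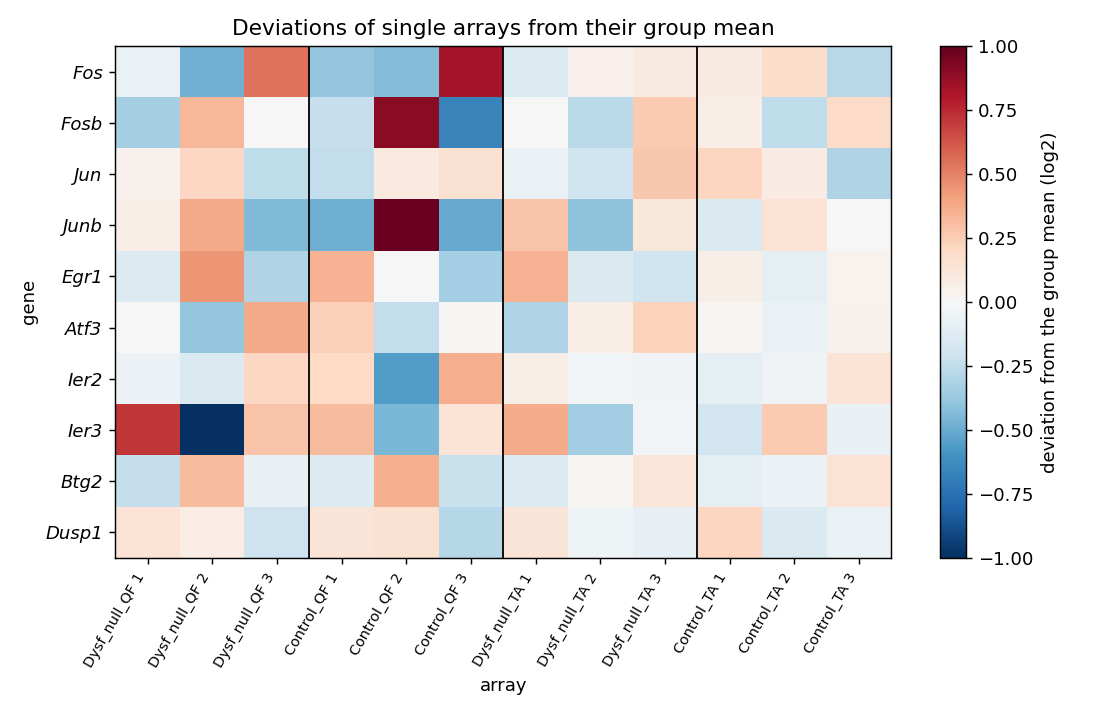
Deviation of each gene from its group mean on each of the 12 arrays (log2), as colour from blue (below) through white to red (above), genes in rows and arrays in columns. No column is one colour throughout, and the darkest cells are Ier3 on Dysf_null_QF 2 at -0.99 and Junb on Control_QF 2 at 0.99.

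The genes whose deviations were most like those of Fos over the 12 arrays, chosen as the 8 with the highest r outside the members, were Ctsc (0.97), Tcf12 (0.97), Tm9sf3 (0.97), Ube2v2, Zfp871, Ppid, Tank and Cmpk1 (0.96 each). They are the extreme of all probe sets tested, so a high r is what chose them. Their genotype differences ranged from -0.30 to 0.51 in QF and from -0.42 to 0.09 in TA. For the mean of the 10 members the 8 highest were Creb1 (0.93), Ift88 (0.93), Gpx4 (0.91), Grb7 (0.88), Cox20 (0.85), Chad, Nedd8 and Coasy (0.82 each). Each of these genes is given by the probe set with the highest r, which need not be its brightest. Creb1, by that probe set, which is 1 of its 3 tested, had genotype differences of -0.20 in QF and 0.42 in TA. A link between Creb1 and the members was not tested.

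Among other immediate early genes, 37 of 48 listed were measured, and 0 were called in QF, in TA or on average, with 4, 4 and 6 at an unadjusted p under 0.05 in limma. The medians were 0.06, 0.09 and 0.07. With the replicate block 1 rose and 2 fell in QF, 2 rose in TA, and 4 rose and 1 fell on average, against the 2.64%, 1.54% and 4.59% of all probe sets that it called in either direction. Klf4, a zinc finger factor, stood at 0.86 ± 0.28 in QF, 0.82 ± 0.28 in TA and 0.84 ± 0.20 on average, with adjusted p = 0.368, 0.618 and 0.0748, and 0.0162, 0.0271 and 0.00216 with the block. Jund, a further AP-1 subunit, was 0.69 ± 0.30 in TA (adjusted p = 0.965, and 0.0202 with the block). Gadd45b and Cebpd, both stress-induced, were -0.94 ± 0.25 and -0.75 ± 0.16 in QF (adjusted p = 0.200 and 0.0677, and 0.0156 and 0.00307 with the block). On average Sgk1 and Ccl2 also passed with the block. Between muscles, Cebpd was lower in TA than in QF in controls by 1.15 ± 0.16 in size (adjusted p = 0.00314, and 0.0376 with the block). Gadd45a was lower in TA than in QF in null mice by 0.75 ± 0.14 (adjusted p = 0.0487, but 0.306 with the block).

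The kinases and factors upstream, such as the MAP kinases, Elk1, Srf and Creb1, gave 0 calls among 17 measured of 27 listed in QF, in TA and on average by limma, with 0 at an unadjusted p under 0.05 and 0 with the block. Their medians were -0.05 in QF and -0.11 in TA. Of 10 heat shock genes measured of 14 listed, 0 were called in QF, in TA or on average, with 0, 2 and 2 at an unadjusted p under 0.05 in limma. The medians were 0.26, 0.24 and 0.13. Hspa8, a constitutive chaperone, was 0.52 ± 0.21 in TA (adjusted p = 0.813). On average it was 0.380 ± 0.145 and passed only with the block (adjusted p = 0.438, and 0.0226 with it). Of 14 hypoxia response genes measured of 15 listed, Bnip3 fell in QF (-1.24 ± 0.18, adjusted p = 0.00961) and Hk2 fell in TA (-1.01 ± 0.16, adjusted p = 0.0129), and the medians were -0.14 and 0.03. On average Bnip3 and Hk2 fell (-0.62 ± 0.13 and -0.70 ± 0.11, adjusted p = 0.0345 and 0.00779), and the median was -0.02. Ddit4, a stress-induced inhibitor of mTOR, was -0.80 ± 0.22 in QF and 0.85 ± 0.22 in TA (adjusted p = 0.203 and 0.235, and 0.00817 and 0.00672 with the block). The genotype differences of Ddit4 in the 2 muscles differed by 1.65 ± 0.31, TA minus QF. This interaction passed only with the block (adjusted p = 0.125, and 0.00440 with it).

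Markers of other cell types moved with genotype beside Fos and Btg2. Of 9 granulocyte markers, 3 rose in TA (S100a9 by 2.74 ± 0.33, S100a8 by 2.32 ± 0.38 and Mmp9 by 3.12 ± 0.53), 1 fell in QF (S100a9, -1.82 ± 0.33, adjusted p = 0.0280) and 1 rose on average (Mmp9). With the replicate block 5 rose in TA, 3 fell in QF and 1 rose on average. Their summed normalized intensity was 1290 to 1502 in null TA and 446 to 625 in control TA, and 524 to 679 in null QF and 777 to 1002 in control QF. A link between this sum and the level of Fos was not tested. Of 5 red cell markers measured of 7 listed, 4 rose in TA, 1 in QF (Bpgm) and 4 on average, and with the block 4, 3 and 4. Their sums were 22836 to 26224 against 11809 to 15759 in TA and 21242 to 27525 against 15901 to 16200 in QF. These sums did not overlap between genotypes in either muscle.

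Of 7 fibroblast markers, 1 rose in QF (Postn, by 1.502 ± 0.205), 0 in TA and 2 on average (Postn and Col1a1), and with the replicate block 5, 3 and 5 rose. All 7 differences were above 0 in both muscles, with medians of 0.75 in QF and 0.44 in TA. Their sums were 26034 to 39147 against 16227 to 24126 in QF and 27862 to 41576 against 20619 to 28241 in TA. Of 9 macrophage markers, 0 were called in QF, Cd68 fell in TA (-1.27 ± 0.19) and Lyz2 rose on average (0.70 ± 0.13, adjusted p = 0.0219). With the block Lyz2 and C1qa rose in QF and on average, C1qa rose in TA, and Cd68 fell in TA and on average. The macrophage sum was 3850 to 4638 against 2985 to 3448 in QF and 3579 to 4156 against 3045 to 3749 in TA. Endothelial, mural, lymphocyte, fat cell and muscle fibre markers gave 0 calls in QF and in TA by limma, with and without the block, and 3 and 2 markers at an unadjusted p under 0.05. None of the granulocyte, macrophage, fibroblast and red cell markers measured was at the floor on all 12 arrays. The part of red cell, granulocyte, macrophage and fibroblast RNA in the differences of Fos and Btg2 was not tested.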

How the data were processed

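The authors deposited linear intensities per probe set for 12 single-channel arrays, which the values show to be scaled to a common trimmed mean (200.1 to 200.2 over the arrays). The software that made them is not given in the sources used here. Of 12488 probe sets 66 controls were left out. Gene names came from the platform annotation, where 10833 probe sets have 1 symbol, 396 several and 1193 no listing. Array medians differed 1.47-fold (72.8 to 107.2), above the limit of 1.25, so intensities were quantile normalized, floored at the 25th percentile of all values and log2 transformed. The 10331 probe sets that exceeded the floor on 3 arrays or more were fitted with limma 3.58.1 (R 4.3.3) as 4 group means with an intensity trend and 8 residual degrees of freedom, two-sided, with Benjamini-Hochberg adjustment. The number of arrays limits the precision (median SE of a difference 0.32).

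A gene's value is that of its probe set with the highest mean level, and all probe sets of the members are described. Lists are given by counts and medians, naming members that were called, up to 4 with the smallest p, and genes called with the block. The members and lists were chosen with earlier results of these data known. Labels give groups the same replicate numbers. Same-numbered arrays of the 2 genotypes deviated together over all probe sets (r = 0.39, 0.71 and 0.66 in QF and 0.18, 0.11 and 0.23 in TA, for numbers 1, 2 and 3), so the block was applied beside the genotype comparisons. Those of the 2 muscles did not do so in every pair (-0.14 to 0.12). The pairing was taken as borne out where every same-numbered pair exceeded 0.1. In TA the lowest pair, at 0.11, was close to the 0.12 of Dysf_null number 3 between muscles, so the pairing in TA is weakly borne out. Python 3.11.15 and matplotlib 3.10.9 made the figures.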

Additional observations from a re-analysis of the deposited data

How the results depend on the processing

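Alternatives were the deposited scale, other floors and filters, no trend, array weights, groups fitted alone, the replicate block, and leaving out each array or both QF arrays numbered 2. Co-variation within each muscle alone was a setting chosen after seeing the data. Of 650 values of the members' genotype differences, 599 kept direction and side of the threshold. The cause of the changes was not tested. Members called in QF went from 0 to 1 with the replicate block, and 0 to 1 leaving out single arrays. In TA the count went from 1 to 2 on the deposited scale, with array weights, with the groups alone, with the block and without both QF arrays numbered 2, and 0 to 2 leaving out single arrays. The average went from 2 to 1 with the lower floor, with log2(value + 32), with no filter and with no trend, and 1 to 2 leaving out single arrays. Fos was called there in 12 of 12 such fits (adjusted p up to 0.00907). Members called between muscles in controls went from 0 to 1 without both QF arrays numbered 2, and 0 to 1 leaving out single arrays. The replicate block, which the numbers do not bear out between muscles, left the members at 0 there in both genotypes.

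Small differences turned sign. Fosb in QF was 0.18 without both QF arrays numbered 2 (-0.45 to 0.34 leaving out single arrays). With array weights Atf3 in QF was -0.00269, Ier3 in TA -0.0538 and Egr1 on average -0.0501, the last also -0.0471 without both QF arrays numbered 2. Leaving out single arrays gave -0.22 to 0.17 for Egr1 in QF, -0.17 to 0.21 for Atf3 in QF, -0.0930 to 0.164 for Jun in TA, -0.0398 to 0.235 for Egr1 in TA, -0.0917 to 0.267 for Ier3 in TA, -0.0911 to 0.306 for Fosb on average and -0.0440 to 0.153 for Egr1 on average. The median r of the member pairs was 0.10 with the second probe sets, -0.0135 on TA arrays alone and -0.246 to -0.0507 leaving out single arrays. Called probe sets among all were 47 in QF (0 to 273 under the other settings, 21 to 82 leaving out single arrays), 42 in TA (28 to 192, and 14 to 45), 113 for the average (56 to 474, and 60 to 129), 7 for the interaction (5 to 32, and 4 to 8), 76 between muscles in controls (21 to 87, and 37 to 145) and 31 in null mice (9 to 52, and 20 to 36). The highest genotype counts came from the block or array weights.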
